A study of Mus musculus with 4 samples.

Results

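Chemokine receptors of T-cell progenitors were followed in Beko cells, a mouse leukemia pre-T-cell line, upon return of Notch signaling. The receptors were 9 genes picked by symbol, Cxcr4, Ccr4, Ccr6, Ccr7, Ccr8, Ccr9, Cxcr3, Cxcr5 and Cxcr6, and all 9 are among the 24391 genes of the count table. The RNA-Seq experiment comprised 4 libraries of this single cell line. In the GSI group, 2 libraries came from cells kept for 48 h in DAPT, a γ-secretase inhibitor (GSI) that blocks the release of the active Notch fragment. In the washout group, 2 libraries came from cells that received the same 48 h of GSI, were washed and were then cultured for 24 h without the inhibitor. The dose is given as 10 mg/ml in the sample labels and as 10 μg/ml in the methods of the study. All 4 libraries had thus been exposed to GSI, and the comparison asks how receptor expression differs once the inhibitor has been removed. The washed cells were also cultured 24 h longer, so that the removal of GSI and the added culture cannot be told apart.

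Chemokine receptors are membrane proteins that couple to inhibitory G proteins and steer cells along gradients of small secreted proteins, the chemokines. In the thymus they guide the entry of progenitors, their passage through cortex and medulla and the exit of mature T cells. Cxcr4, the receptor for Cxcl12, retains early thymocytes in the cortex and acts together with the pre-T-cell receptor. Ccr9, the receptor for Ccl25, serves thymus seeding and, on mature cells, homing to the small intestine. Ccr7 and Ccr4 guide thymocytes toward the medulla, whereas Ccr6, Ccr8, Cxcr3, Cxcr5 and Cxcr6 are best known from effector, regulatory, follicular and innate-like T cells.

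The libraries held between 13716199 and 36364200 counted reads, and replicate 1 was the deeper library in both groups. Levels are given as CPM, counts scaled to a common library size with TMM factors. Log2 CPM correlated at 0.99 between the GSI replicates and at 0.988 between the washout replicates, across genes. The response to Notch was checked first with 8 of its known targets. All 8 were higher upon washout at an adjusted p under 0.05, against 27% of all genes tested. Of these targets 7, among them Hey1 (3.47) and Dtx1 (3.20), also passed a log2 fold change of 1, against 7.74% of all genes. DESeq2 called 6 of the 8, without Hes1, whose log2 fold change ranged from 0.92 to 2.41 with 1 library left out, the lower value without GSI replicate 2. All 16 markers of the T lineage were expressed. Their level summed to 7195 and 7737 CPM in GSI, compared with 6746 and 6579 CPM after washout. This sum covers changes in both directions. At an adjusted p under 0.05, 9 markers were lower and 3 higher, against 25.4% and 27% of all genes, and their median log2 fold change was -0.65. The replicates are not stated to come from separate cultures, and p-values measure only the spread between these libraries.

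Of the 9 receptors, 4 were expressed at a level that could be tested, 3 were at the edge of detection and 2 were listed at 0 in every library. The tested ones were Cxcr4, Ccr9, Ccr4 and Cxcr6. Upon washout Ccr9 and Cxcr6 fell strongly, Ccr4 fell slightly, and no change of Cxcr4 was detected. In bulk RNA, fewer cells that express a receptor and less RNA per cell cannot be told apart. At an adjusted p under 0.05 together with a log2 fold change beyond 1, the thresholds of the study, 2 receptors were lower and 0 were higher, against 11.7% of all 12266 genes tested that were lower and 7.74% that were higher. DESeq2 and the unadjusted p of edgeR also gave 0 higher receptors. With the adjusted p alone, 3 of the 4 were lower, against 25.4% of all genes that were lower and 52.5% that changed in either direction. Adjusted p-values are those of the quasi-likelihood test of edgeR, corrected over all genes tested after Benjamini and Hochberg.

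**Figure D1:**
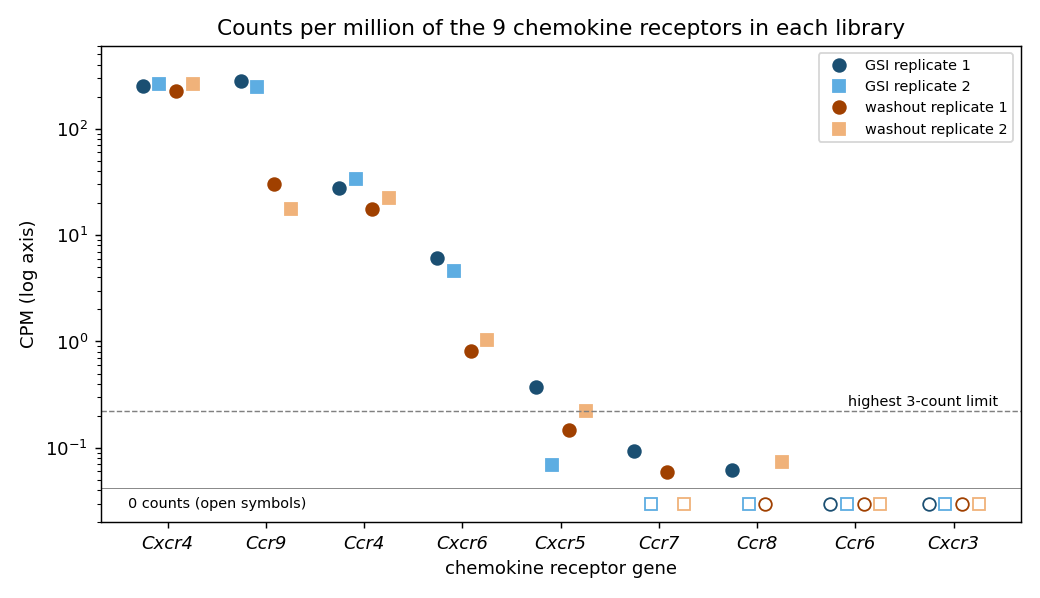
Level of each of the 9 chemokine receptors (CPM, log axis) in the 2 GSI and the 2 washout libraries, 1 symbol per library, with open symbols for 0 counts and a dashed line at the highest CPM that 3 counts correspond to (0.223 CPM). Ccr9 and Cxcr6 separate by group, Cxcr4 stays between 225.4 and 265.4 CPM, and the 5 receptors on the right lie at or near the detection limit.

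The promoters of the 4 tested receptors are shown because 2 of them, Ccr9 and Cxcr6, fell together and are neighbors on chromosome 9. The sequence table held 7 of the 9 receptors and not Ccr7 and Cxcr5. Each run spans 250 bases before to 50 bases after the start of the gene, 5′ to 3′ on its own strand, from RefSeq on GRCm38.p6, a later build than mm9. All 4 windows were found once, letter for letter, in the mm9 sequence. There the Ccr9 window has its start at 123676329, which is the start of the transcript Ccr9-001 in GENCODE and lies 88.8 kb inside the span that GENCODE gives the gene, while those of the other 3 lie within 0.006 kb of the GENCODE start. The windows lie at chr9:123766961-123767260 for Ccr9, chr9:123806227-123806526 for Cxcr6, chr1:128592250-128592549 for Cxcr4 (minus strand) and chr9:114496495-114496794 for Ccr4 (minus strand). Capitals mark matches to 4 motifs, which were searched on both strands. They were TGGGAA as the core bound by RBPJ, the DNA-binding partner of Notch, and TGTGGT as that of RUNX factors. The others were AGATAA as a motif of the Gata family and CAGNTG as a form of the E-box.
Ccr9: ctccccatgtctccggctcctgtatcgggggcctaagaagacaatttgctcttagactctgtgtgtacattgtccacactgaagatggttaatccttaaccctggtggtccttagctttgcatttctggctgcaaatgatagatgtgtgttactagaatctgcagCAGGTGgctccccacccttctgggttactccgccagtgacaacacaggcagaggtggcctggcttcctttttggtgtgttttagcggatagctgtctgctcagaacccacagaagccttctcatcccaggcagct
Cxcr6: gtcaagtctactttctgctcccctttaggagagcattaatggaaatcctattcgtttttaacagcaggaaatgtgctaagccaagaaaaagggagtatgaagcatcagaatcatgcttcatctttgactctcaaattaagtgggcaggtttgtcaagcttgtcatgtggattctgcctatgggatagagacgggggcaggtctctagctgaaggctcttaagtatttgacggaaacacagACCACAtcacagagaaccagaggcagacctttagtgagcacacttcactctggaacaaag
Cxcr4: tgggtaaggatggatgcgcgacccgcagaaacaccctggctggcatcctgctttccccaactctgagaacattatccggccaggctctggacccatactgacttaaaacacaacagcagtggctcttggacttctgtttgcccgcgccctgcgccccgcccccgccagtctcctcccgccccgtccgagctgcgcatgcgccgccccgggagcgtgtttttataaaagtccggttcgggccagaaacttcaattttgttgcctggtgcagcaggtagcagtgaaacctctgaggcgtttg
Ccr4: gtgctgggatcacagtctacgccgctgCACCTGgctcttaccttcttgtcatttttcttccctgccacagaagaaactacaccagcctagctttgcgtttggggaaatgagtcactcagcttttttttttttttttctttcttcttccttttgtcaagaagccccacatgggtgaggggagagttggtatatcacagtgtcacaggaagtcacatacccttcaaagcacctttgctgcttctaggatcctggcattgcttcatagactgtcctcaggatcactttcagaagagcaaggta
The RBPJ core TGGGAA was found in 0 of the 4 windows and in 25.6% of all 32851 promoter windows of this length. The form TGAGAA was not searched, although the study reports it as frequent as TGGGAA at the sites where GSI reduced RBPJ binding. It occurs in the Cxcr4 window and, on the other strand, in the Ccr9 window, and its share of all windows was not counted. The E-box form CAGNTG was found once in Ccr9, 85 bases before the start, and once in Ccr4, 223 bases before it. It occurred in 51.4% of all windows, and other forms of the E-box were not searched. The RUNX core was found once in Cxcr6, 10 bases before the start, and in 16.8% of all windows. The GATA core, in 11.2% of all windows, was found in none of the 4. Ccr9 and Cxcr6 shared 0 of the motifs searched. A match describes letters of the window and not binding, and letters outside the window were not searched.

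Cxcr4 was the most abundant receptor upon washout. In GSI it had 8046 and 3872 counts, compared with 7672 and 3537 after washout. In CPM the GSI libraries held 251.5 and 265.4 and the washout libraries 225.4 and 263.2, and the groups overlap. The means were 258.4 ± 9.83 CPM (SD, n = 2) and 244.3 ± 26.7 CPM (SD, n = 2). The log2 fold change of Cxcr4 was -0.08 (standard error 0.114, adjusted p = 0.576 from edgeR), with a 95% interval from -0.36 to 0.19. A change of Cxcr4 to less than 0.78 or more than 1.14 times its GSI level thus lies outside the interval. After offsets for GC content and exon length the value was -0.37 (adjusted p = 0.0295 from edgeR), past the threshold on p. The gene lies on chromosome 1 from 130484776 to 130488870 (mm9, minus strand), and no other annotated gene overlaps it. Its tested neighbors within 250 kb, Mcm6 and Dars, were both higher upon washout. Mcm6, a subunit of the replicative helicase, had a log2 fold change of 1.40 (adjusted p = 0.000954 from edgeR). Dars, an aminoacyl-tRNA synthetase, had one of 0.57 (adjusted p = 0.0129 from edgeR), but was not past the threshold on p with the total count alone (0.37, adjusted p = 0.0574), without GSI replicate 1 (adjusted p = 0.0594) or without GSI replicate 2 (adjusted p = 0.0592).

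Ccr9 showed the largest change of the tested receptors. In GSI it had 8950 and 3608 counts, compared with 1032 and 239 after washout. In CPM it fell from 279.7 and 247.3 to 30.3 and 17.8, so that every GSI library lies far above every washout library. The means were 263.5 ± 22.9 CPM (SD, n = 2) in GSI and 24.1 ± 8.86 CPM (SD, n = 2) upon washout. The log2 fold change of Ccr9 was -3.43 (standard error 0.247, adjusted p = 0.000345 from edgeR), that is, 10.7-fold lower with a 95% interval from 7.10-fold to 16.3-fold. The washout replicates differed by 1.70-fold from each other. Leaving out any 1 library gave log2 fold changes of Ccr9 between -3.88 and -3.10.

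Cxcr6, the receptor for the membrane-bound chemokine Cxcl16, also fell. In GSI it had 196 and 67 counts (6.13 and 4.59 CPM), compared with 28 and 14 (0.823 and 1.04 CPM) after washout. The groups do not overlap, and the replicates differed by 0.416 in log2 CPM in GSI and by 0.341 upon washout. The means were 5.36 ± 1.08 CPM (SD, n = 2) and 0.932 ± 0.155 CPM (SD, n = 2). The log2 fold change of Cxcr6 was -2.57 (standard error 0.314, adjusted p = 0.00123 from edgeR), 5.94-fold lower with a 95% interval from 3.51-fold to 10.1-fold. The gene was thus rare to begin with, and its washout level rests on few reads.

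Ccr4, which binds Ccl17 and Ccl22, changed least among the receptors that fell. In GSI it had 883 and 495 counts, compared with 599 and 301 after washout. In CPM this was 27.6 and 33.9 against 17.6 and 22.4, and the groups do not overlap. The means were 30.8 ± 4.48 CPM (SD, n = 2) in GSI and 20.0 ± 3.39 CPM (SD, n = 2) upon washout. The log2 fold change of Ccr4 was -0.63 (standard error 0.171, adjusted p = 0.0225 from edgeR), 1.54-fold lower and under the fold threshold. Without GSI replicate 2 it was -0.46 (adjusted p = 0.114 from edgeR), and without washout replicate 1 it was -0.44 (adjusted p = 0.0636 from edgeR). The direction was thus the same, but passing the threshold on p rests on each of these libraries. Ccr4 lies on chromosome 9 from 114399434 to 114405662 (mm9, minus strand). It has no overlapping gene. Of its 5 tested neighbors within 250 kb, 0 passed both thresholds in edgeR or in DESeq2, against 19.5% of all genes in edgeR. An unadjusted p under 0.05 in edgeR was seen for 3 of them. Past the adjusted p alone, as were 52.5% of all genes, Cmtm6 was lower (log2 fold change -0.54, adjusted p = 0.0035 from edgeR). Crtap was higher by the same measure (0.50, adjusted p = 0.0145 from edgeR).

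**Figure D2:**
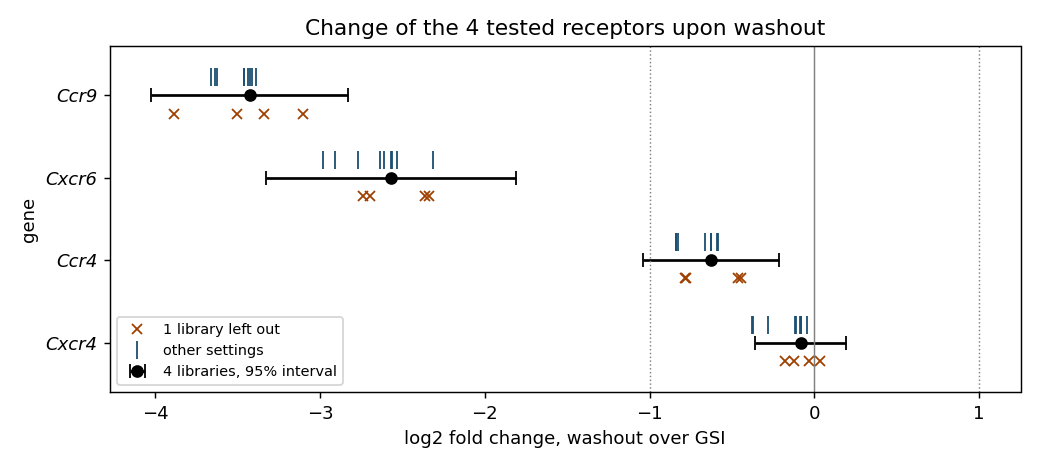
Log2 fold change of washout over GSI for the 4 tested receptors, with black points and bars for the value and its 95% interval from all 4 libraries, crosses for values with 1 library left out and ticks for other settings. Ccr9 and Cxcr6 lie below the dotted line at -1 under all of them, Ccr4 lies between -0.84 and -0.44, and Cxcr4 between -0.38 and 0.032.

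Cxcr5, Ccr7 and Ccr8 were detected by a few reads only. Cxcr5, the receptor for Cxcl13, had 12 and 1 counts in GSI, compared with 5 and 3 after washout. Ccr7, which binds Ccl19 and Ccl21, had 3 and 0 counts in GSI, compared with 2 and 0 after washout. Ccr8, the receptor for Ccl1, had 2 and 0 counts in GSI, compared with 0 and 1 after washout. None of the 3 passed the filter on low counts, and their groups overlap. Without that filter their adjusted p-values lay between 0.667 (Cxcr5) and 0.850 (Ccr7) in edgeR. Ccr6, the receptor for Ccl20, and Cxcr3, the receptor for Cxcl9, Cxcl10 and Cxcl11, were at 0 counts in all 4 libraries. A count of 0 allows up to 3 counts. As CPM this limit was 0.0938 and 0.206 for GSI replicates 1 and 2, and 0.0881 and 0.223 for washout replicates 1 and 2. Such limits, like the intervals of shares, cover counting error only. At this depth a difference of these 5 receptors was not detectable.

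The make-up of the receptor RNA differed between the groups. The 9 receptors together held 18092 and 8043 counts in GSI, compared with 9338 and 4095 after washout. Their summed level was 565.5 and 551.3 CPM against 274.4 and 304.7 CPM. In GSI, Ccr9 took 49.5% (95% Wilson interval 48.7 to 50.2) and 44.9% (43.8 to 46.0) of these counts. Upon washout it took 11.1% (10.4 to 11.7) and 5.84% (5.16 to 6.60). Cxcr4 took 44.5% and 48.1% in GSI and 82.2% and 86.4% upon washout. Such shares compare genes within a library and do not depend on how libraries are scaled to each other. The ratio of Ccr9 to Cxcr4 counts was 1.11 and 0.932 in GSI and 0.135 and 0.0676 upon washout, and that of Ccr4 to Cxcr4 counts was 0.110 and 0.128 against 0.0781 and 0.0851. In both ratios the groups do not overlap.

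**Figure D3:**
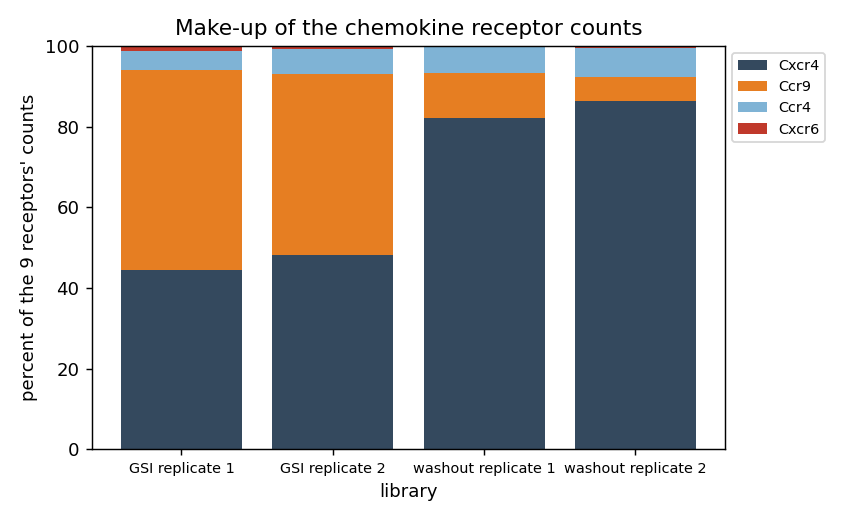
Percent of the counts of all 9 receptors that fell on Cxcr4, Ccr9, Ccr4 and Cxcr6 in each library, as stacked bars. Ccr9 takes 49.5% and 44.9% in the GSI libraries and 11.1% and 5.84% in the washout libraries, where Cxcr4 takes most of the counts.

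Levels of different genes were compared per kilobase of annotated exon. In GSI the order was Cxcr4 with 142.9 ± 5.44 CPM per kb (SD, n = 2), Ccr9 with 81.9 ± 7.13, Ccr4 with 10.6 ± 1.55 and Cxcr6 with 2.83 ± 0.573. Each of these levels differs from its neighbor in the order by more than the spread between replicates. Upon washout Cxcr4 had 135.1 ± 14.8 CPM per kb (SD, n = 2), Ccr9 7.48 ± 2.76, Ccr4 6.91 ± 1.17 and Cxcr6 0.492 ± 0.0818. Upon washout Ccr9 and Ccr4 thus did not differ beyond their spread. The exon lengths are those of GENCODE, in which Ccr9 has long transcripts. The lengths used by the authors for counting were not used here.

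Of the 9 receptor genes, 5 lie on chromosome 9, and the 2 that fell strongly are neighbors there. Ccr9 is annotated from 123587557 to 123691089 and Cxcr6 from 123715595 to 123720872 (mm9, both plus strand), with 24.5 kb between them. The first of these positions comes from 1 transcript, Ccr9-002, and the other 3 transcripts of Ccr9 start between 123676329 and 123676347. Distances and windows are counted from the first position. A window of 250 kb to either side of each receptor gene was examined, a size chosen after the receptor counts were seen. These genes are thus described, with no test of the region itself. In the window around Ccr9, 9 other genes were tested, and 5 of them, Cxcr6 included, were lower past both thresholds, against 11.7% of all genes tested. Slc6a20a, a proline transporter gene, fell from 8.44 and 8.91 CPM in GSI, with 1.09 and 0.595 left after washout (log2 fold change -3.25, adjusted p = 0.000605 from edgeR). Its paralog Slc6a20b fell likewise, from 3.75 and 3.70 CPM in GSI, with 0.852 and 0.818 left (log2 fold change -2.14). Lztfl1, which regulates protein traffic to cilia, had 390.3 and 309.4 CPM in GSI, but 54.4 and 30.3 after washout (log2 fold change -3.03). Fyco1, an adaptor for the transport of autophagosomes, had 46.7 and 53.0 CPM in GSI, but 14.5 and 18.3 after washout (log2 fold change -1.62). The 6 genes, with the 2 receptors, lie in a run of 258.1 kb that holds 7 genes of the table, from 123502938 to 123761020. The seventh is the pseudogene Gm10052, inside the span of Ccr9-002, which was higher (log2 fold change 0.88, adjusted p = 0.00326 from edgeR) and whose value is uncertain, since a pseudogene can share reads with its parent gene.

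On the side of Slc6a20b, 0 of the 3 further genes passed both thresholds. Sacm1l, a phosphoinositide phosphatase, had 123.6 and 118.0 CPM in GSI, compared with 109.7 and 88.6 after washout (log2 fold change -0.28, adjusted p = 0.0996 from edgeR). It was past the threshold on p in 5 alternatives, at -0.50 with GC content and exon length offsets. Limd1 had a log2 fold change of -0.11 (adjusted p = 0.384 from edgeR). Lars2 differed between the GSI replicates, with 49.1 and 315.3 CPM. Its log2 fold change was -0.33 (adjusted p = 0.723 from edgeR), but -1.14 without GSI replicate 1 and 1.56 without GSI replicate 2. On the other side lie 4 further chemokine receptor genes. Xcr1 had 24 and 5 counts in GSI, compared with 9 and 4 after washout, and was not tested, and Ccr1, Ccr1l1 and Ccr3 had 0 counts in every library.

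Several of these genes overlap on the genome. Through the transcript Ccr9-002 alone, Ccr9 shares 22 exon bases with Slc6a20a on the opposite strand and spans Lztfl1, also on the opposite strand, without shared exon bases. The other 3 transcripts of Ccr9 overlap neither gene. Every transcript of Ccr9 overlaps Gm17021 on the opposite strand, with which the gene shares 56 exon bases. Through Ccr9-002, Ccr9 also overlaps Gm17200 on the same strand, with 269 shared exon bases. Neither Gm17021 nor Gm17200 is among the genes of the count table. Which transcripts of Ccr9 the counting used was not analysed here. Cxcr6 lies wholly inside Fyco1, which is on the opposite strand, also without shared exon bases. The library kit keeps the strand, but the strand setting of the counting is not stated, so that reads of these pairs may not be fully told apart. Lztfl1 had more counts than Ccr9 in every library, and Fyco1 more than Cxcr6. Ccr4 and Cxcr4 have no such partner.

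Of the other 15 chemokine receptors of the mouse, 6 were at 0 in every library and 2 could be tested, with 0 past both thresholds in edgeR and in DESeq2 and 1 with an unadjusted p under 0.05 in edgeR. Ccr10, the receptor for Ccl27 and Ccl28, had 15 and 11 counts in GSI, compared with 8 and 2 after washout (log2 fold change -1.46, adjusted p = 0.0615 from edgeR). With the replicate number as a block its log2 fold change was -1.39 (adjusted p = 0.0362 from edgeR), and scaled to the total count alone -1.66 (adjusted p = 0.0392 from edgeR). Ackr4, a scavenger of Ccl19, Ccl21 and Ccl25, had 22 and 9 counts in GSI, compared with 13 and 6 after washout (log2 fold change -0.70, adjusted p = 0.204 from edgeR). The receptor repertoire of these cells thus consisted mainly of Cxcr4, Ccr9 and Ccr4.

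Chemokine ligands were almost absent. Of 40 ligand genes, 29 were at 0 in every library and 35 had at most 3 counts in each. Ccl25, the ligand of Ccr9, had 80 and 47 counts in GSI, compared with 79 and 30 after washout. Its log2 fold change was -0.31 (adjusted p = 0.399 from edgeR), and no change was detected. Cxcl16, the ligand of Cxcr6, had 34 and 15 counts in GSI, compared with 13 and 7 after washout. Its log2 fold change was -1.27 (adjusted p = 0.0359 from edgeR, between 0.00832 and 0.295 over the alternatives). This call was lost without any 1 of the 4 libraries, where it lay between -1.43 and -0.99. Cxcl10 had 4 and 1 counts in GSI, compared with 1 and 0 after washout. Cxcl12, the ligand of Cxcr4, had 1 count in GSI replicate 2 and 0 in the other libraries.

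Behind the receptors, most signaling genes did not pass the thresholds. Of 74 genes in 6 lists, 67 were tested, and 2 were higher and 6 lower past both thresholds, 11.9% against 19.5% of all genes tested. Their median log2 fold change was -0.19, against -0.0096 over all genes. Scaled to the total count alone, 0 were higher and 14 lower. Without washout replicate 1, 4 genes were called, 1 higher and 3 lower. At an adjusted p under 0.05 alone, 5 were higher and 21 lower, against 27% and 25.4% of all genes.

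The G protein subunits, which carry the first step of the signal, had 10 tested members and 0 calls, against 19.5% of all genes tested. Their median log2 fold change was -0.13. The count of calls was 0 also in DESeq2 and with the adjusted p of edgeR alone, and 2 were lower at an unadjusted p under 0.05 in edgeR. Of the 7 RGS proteins tested, which switch the G proteins off, 2 were lower, against 11.7% of all genes tested. They were Rgs2 (log2 fold change -1.13) and Rgs16 (-1.08). Rgs2 was under the fold threshold without washout replicate 1 (-0.86), as was Rgs16 without washout replicate 2 (-0.88) and without GSI replicate 1 (-0.74, adjusted p = 0.0991 from edgeR). Of 15 tested genes of receptor desensitization, 1 was higher and 0 lower, against 7.74% higher and 11.7% lower among all genes tested. The higher gene was Usp14, a deubiquitinase that acts on Cxcr4 (log2 fold change 1.08). Usp14 was under the fold threshold without washout replicate 1 (0.67), without GSI replicate 2 (0.99), with the total count alone (0.88) and with GC content and exon length offsets (0.95), and was at 1.41 without washout replicate 2. The arrestin gene Arrb1 had a log2 fold change of -0.94 (adjusted p = 0.00065 from edgeR), just under the fold threshold, and of -1.14 with the total count alone.

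The module of PI3Kγ and Rac, which turns the signal into cell movement, had 21 tested members. Of these 1 was higher and 3 lower, against 7.74% higher and 11.7% lower among all genes tested. With the adjusted p alone, 2 were higher and 8 lower, against 27% and 25.4% of all genes. Pik3cg, the catalytic subunit of PI3Kγ, had 3167 and 1878 counts in GSI, but 1449 and 793 after washout (log2 fold change -1.17, adjusted p = 0.00363 from edgeR). It was under the fold threshold without GSI replicate 2 (-0.96) and without washout replicate 1 (-0.94). Pik3cd, the catalytic subunit of PI3Kδ, had a log2 fold change of -2.01 (adjusted p = 0.0277 from edgeR). Its call was lost without GSI replicate 2 (-1.58, adjusted p = 0.0802) and without washout replicate 1 (-1.21, adjusted p = 0.0570), and the value was -2.94 without washout replicate 2. Ptk2b, a kinase of the focal adhesion family, had 149 and 19 counts in GSI, compared with 6 and 1 after washout (log2 fold change -4.38, adjusted p = 0.00556 from edgeR) and a value of -3.13 without GSI replicate 1 and -5.28 without washout replicate 1. Its GSI libraries differed, at 4.66 and 1.30 CPM. Elmo1, the partner of the Rac activator Dock2, was higher (log2 fold change 1.12, adjusted p = 0.00109 from edgeR), but was under the fold threshold without GSI replicate 1 (0.96) and with the total count alone (0.92). Of the 12 genes of the Rap1 adhesion module, all tested, 7 were lower at an adjusted p under 0.05, against 25.4% of all genes, and 1 of them also passed the fold threshold, the adaptor gene Fyb (-1.27). Of the 2 tyrosine sulfotransferases, which modify the ligand-binding ends of the receptors, 0 passed both thresholds in edgeR or in DESeq2, and Tpst1 had an unadjusted p under 0.05 in edgeR (log2 fold change 0.63, adjusted p = 0.00484 from edgeR).

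**Figure D4:**
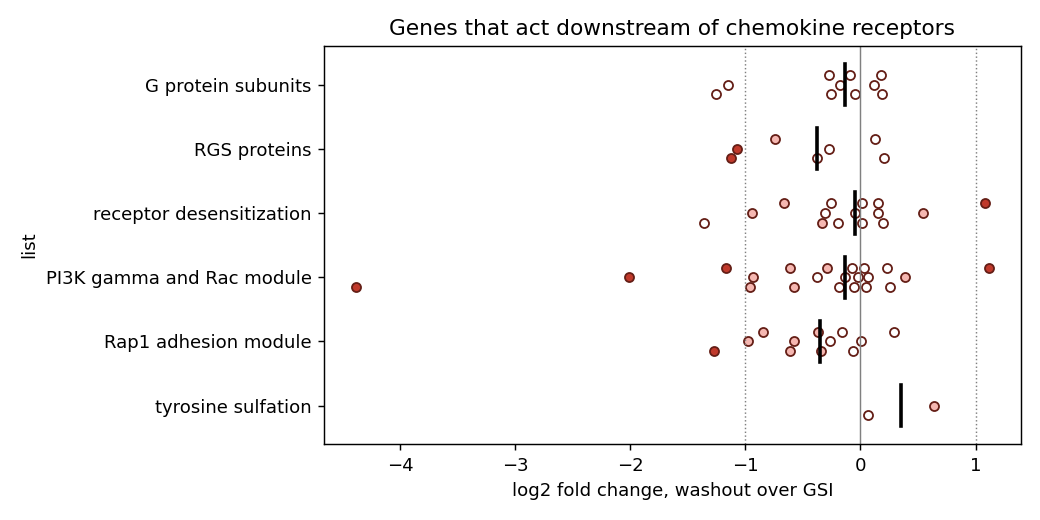
Log2 fold change of washout over GSI for the tested genes of 6 signaling lists, 1 point per gene, filled dark where both thresholds were passed, pale where only the adjusted p was under 0.05 and open otherwise. Bars mark the list medians, which lie between -0.38 and 0.35, and the lowest point is Ptk2b at -4.38.

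The genes whose pattern over the 4 libraries was most like that of a receptor were found by the smallest root mean square distance of centered log2 CPM. For Ccr9 these were Haao (distance 0.0671), Gsn (0.102) and its neighbor Slc6a20a (0.136). Gsn, which encodes the actin-severing protein gelsolin, had 440.9 and 411.7 CPM in GSI, but 43.7 and 31.0 after washout. For Cxcr6 they included Tnfaip8l2 (0.104) and Naaa (0.106). For Cxcr4 they were Ehmt2 (0.0162), Smug1 (0.0169) and Zfp61 (0.0188), none of which changed past the threshold on p in the main fit. With GC content and exon length offsets, Ehmt2 was past it (log2 fold change 0.28, adjusted p = 0.0203 from edgeR). All these genes were picked for their likeness in the same libraries, so that their changes are no separate evidence.

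Some other marker genes moved with Ccr9 and Cxcr6, and others did not. Among the 16 T-lineage markers, 4 were lower past both thresholds, against 11.7% of all genes: Gata3 (log2 fold change -1.67), Cd2 (-1.29), Cd8b1 (-1.29) and Cd4 (-1.16), and Ptcra, also 1 of the 8 Notch targets, was higher (2.37). The 9 mast cell markers summed to 274.8 and 166.9 CPM in GSI, compared with 45.7 and 30.5 after washout. This sum came from Cpa3 and Kit, since 6 markers were at 0 in every library, Fcer1a, Ms4a2 and the tryptase genes among them. The 7 NK cell markers summed to 2606 and 1804 CPM in GSI, compared with 388.0 and 308.0 after washout. Here Gzma held nearly all counts, and Klrd1 and Klrk1 were at 0. The 10 myeloid markers summed to 49.2 and 38.2 CPM in GSI, compared with 5.49 and 4.99 after washout, with Itgam in the lead and Lyz2, Elane and Cebpa at 0. The 8 B-cell markers summed to 9.10 and 5.96 CPM in GSI, compared with 3.26 and 2.01 after washout, most of it Blnk, with Pax5, Ebf1 and Ms4a1 at 0. The 8 dendritic cell markers summed to 25.1 and 15.7 CPM against 5.52 and 4.54 CPM, with Siglech at 0. H2-Ab1 was the highest in GSI (log2 fold change -2.85, from -3.57 without washout replicate 1 to -2.36 without GSI replicate 1). For Cd74, the other dendritic cell marker tested, no change was detected (log2 fold change -0.19, adjusted p = 0.627 from edgeR). The 8 stromal and epithelial markers summed to 269.4 and 219.8 CPM against 95.3 and 101.7 CPM, most of it Pecam1, with Krt8 at 0. The 6 erythroid markers summed to 23.8 and 21.5 CPM against 11.3 and 10.8 CPM, with both globin genes at 0. The part of any such cells in the fall of Ccr9 and Cxcr6 was not tested.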

How the data were processed

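RNA-Seq of total RNA was analyzed in 4 libraries of Beko cells, 2 in GSI and 2 upon washout. Reads had been trimmed (trimGalore) and mapped by the authors with HISAT2 2.2.1 (version from the submitters' processing notes) to the mm9 genome, keeping a single alignment of each read. Counting used summarizeOverlaps and genes of iGenomes. The deposited values are these raw counts, neither normalized nor pooled. The overlap mode of the counting is not given in the sources used here. GENCODE vM1, on the same build, gave positions, exon length and GC content for 20641 of the 24391 symbols.

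The 2 groups were tested in edgeR 4.0.16 (R 4.3.3) by quasi-likelihood, after filterByExpr and TMM and with no covariate. Adjustment followed Benjamini and Hochberg over the whole set of genes tested. A call required an adjusted p under 0.05 and a log2 fold change above 1 in size, as in the study. The biological coefficient of variation was 0.121. Each standard error is the size of the log2 fold change over the root of its F statistic. Groups were taken from the sample labels. The scripts were tested on simulated data. Alternatives were DESeq2 1.42.0, RLE factors or the total count alone, no filter or a minimum of 10 counts per library, the replicate block, GC content and exon length offsets (10962 genes) with and without that block, thinned counts, other thresholds and leaving out each library.

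The receptors and the gene lists were chosen with earlier results of these data known. Named were all 9 receptors, the called genes of each other list (up to 4 in each direction, average log2 CPM 1 or more), ligands of the receptors with more than 3 counts, genes that overlap a receptor, and the 3 genes most like Cxcr4 and each called receptor. Of these, 1 is not reported here. Other neighbors, Ptk2b, Arrb1, Tpst1, Ccl5, Ccr10, Ackr4, Cxcl12 and marker genes outside this rule were named after their values were seen.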

Additional observations from a re-analysis of the deposited data

How the results depend on the processing

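The 2 receptors called, Ccr9 and Cxcr6, were also the count in 14 of 15 alternatives, and with the adjusted p alone it was 3. In the 13 alternatives that give a log2 fold change, that of Ccr9 lay between -3.88 and -3.10 and that of Cxcr6 between -2.98 and -2.31. Without 1 library at a time, when the lone library of a group is assumed to vary like the others, the log2 fold change of Ccr4 ranged from -0.78 to -0.44 and that of Cxcr4 from -0.18 to 0.032, the latter without washout replicate 1. With GC content and exon length offsets, the log2 fold change of Cxcr4 was -0.37 (adjusted p = 0.0295 from edgeR), and together with the replicate block -0.38 (adjusted p = 0.000114). The cause was not tested. All genes called were 2387 (950 higher, 1437 lower), 6435 with the adjusted p alone and 809 with glmTreat against a log2 fold change of 1. Scaled to the total count alone, they were 586 higher and 1963 lower, and the median of all genes was -0.21. Called signaling genes went from 8 to 14 with the total count alone, 26 with the adjusted p alone and 1 with glmTreat, and to between 4 and 8 with 1 library left out. The number of called ligands, 1 (Cxcl16), went to 0 in DESeq2, with at least 10 counts in every library, with counts thinned to the smallest library, with glmTreat and without each library in turn (0 to 0). Without the filter on low counts it was 1, but this was Ccl5, and Cxcl16 had an adjusted p of 0.0667 in edgeR. Called receptors outside the 9 went from 0 to 1, Ccr10, with the total count alone and with the replicate block.

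Deviations of the libraries numbered 1 from their group means correlated at 0.497 between the groups, but the labels do not say that a number marks a shared culture. With the replicate block 2557 genes were called in all, the log2 fold change of Ccr9 was -3.46, of Cxcr6 -2.63, of Ccr4 -0.63 and of Cxcr4 -0.09, and no call among these 4 changed.

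Among 50 other genes, 600 of 636 values kept direction and side of the threshold on the adjusted p, and 15 lost that threshold. By both thresholds, 26 values lost a call, in 10 of 37 called genes (Cxcl16, Usp14, Pik3cd, Pik3cg, Rgs16, Rgs2, Elmo1, Hes1, Notch1 and Blnk), and 11 gained one. The sign turned for Ehmt2 with the GC and length offsets, without and with the block (0.28 and 0.28), and ranged from -0.17 to 0.010 with 1 library left out. It turned for Limd1 with these offsets (0.0076, with the block 0.0081), for Smug1 without washout replicate 1 (range -0.15 to 0.019) and for Zfp61 without washout replicate 1 or GSI replicate 2 (range -0.17 to 0.047). Lars2 reached 0.20 with the replicate block, 0.22 with block and offsets, and ranged from -1.14 to 1.56 with 1 library left out. Depth limits the 5 receptors near 0 and the washout values of Cxcr6.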
